A study of Mus musculus with 6 samples.

Results

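The neuronal immediate early genes described here are 10 genes of the mouse hippocampus: Fos, Fosb, Junb, Egr1, Egr2, Arc, Npas4, Nr4a1, Nr4a2 and Dusp1. They were taken by gene symbol from a count table of 18263 genes, and all 10 were found and all 10 passed the filter on low counts. The libraries came from whole hippocampus of 5xFAD mice (3 libraries) and WT mice (3 libraries), all aged 6 months according to the sample labels and with no treatment given in them. 5xFAD mice carry transgenes that include human APP with the Swedish, Florida and London mutations. The study describes the APP transgene as driven by the murine Thy-1 promoter, which is active in neurons. Its methods describe isoflurane anaesthesia and perfusion with saline. Libraries were made from rRNA-depleted total RNA. The labels number the libraries as replicates without saying that each is a separate animal, so p-values measure the spread between these libraries.

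Immediate early genes are transcribed within minutes of neuronal activity, without the need for new protein synthesis. Synaptic calcium entry activates MAP kinase, CaMK and PKA signalling, which act on factors already bound to DNA, among them CREB at cAMP response elements (CRE) and serum response factor at CArG boxes. The products are mostly transcription factors (Fos, Fosb, Junb, Egr1, Egr2, Npas4, Nr4a1 and Nr4a2). Arc instead is a synaptic protein that promotes removal of AMPA receptors from the synapse, and Dusp1 is a phosphatase that switches MAP kinases off. In the hippocampus these mRNAs are widely used as markers of recently active neurons. Whole tissue does not separate fewer cells of a type from less RNA per cell; the values below cannot tell these apart.

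Because CREB sites are a known shared feature of this class, the RefSeq promoter windows of the genes were searched for them. Windows run from 250 bases before to 50 bases after the transcription start (GRCm38.p6), and 8 of the 10 genes matched one. Arc and Egr1 had no window, so their promoters were not searched, and sequence outside the windows was not searched for any gene. The window of Fos, the prototype of the class, is shown with the windows of Nr4a1, Nr4a2 and Dusp1, which had the lowest 5xFAD levels relative to WT described further on, and with 1 of the 5 windows of Egr2, the gene that had a CArG box. Each sequence runs 5′ to 3′ on the gene's strand, and capitals mark CRE cores (TGACG or its complement CGTCA, one side of the palindromic site), the full CRE (TGACGTCA) and the CArG box.
Fos, chr12:85473640-85473939, plus strand: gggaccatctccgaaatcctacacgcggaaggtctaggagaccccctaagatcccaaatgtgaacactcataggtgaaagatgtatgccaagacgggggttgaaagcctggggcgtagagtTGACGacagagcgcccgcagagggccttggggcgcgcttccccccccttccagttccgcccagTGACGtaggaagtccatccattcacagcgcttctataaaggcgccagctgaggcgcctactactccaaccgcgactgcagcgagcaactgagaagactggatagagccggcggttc
Nr4a1, chr15:101266596-101266895, plus strand: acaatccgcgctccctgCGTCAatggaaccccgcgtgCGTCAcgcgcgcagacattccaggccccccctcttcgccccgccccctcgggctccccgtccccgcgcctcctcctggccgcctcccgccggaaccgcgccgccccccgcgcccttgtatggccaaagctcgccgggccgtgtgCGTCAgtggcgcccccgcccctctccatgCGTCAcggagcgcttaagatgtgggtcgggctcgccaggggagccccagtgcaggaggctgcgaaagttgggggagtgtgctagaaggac
Nr4a2, chr2:57123954-57124253, minus strand: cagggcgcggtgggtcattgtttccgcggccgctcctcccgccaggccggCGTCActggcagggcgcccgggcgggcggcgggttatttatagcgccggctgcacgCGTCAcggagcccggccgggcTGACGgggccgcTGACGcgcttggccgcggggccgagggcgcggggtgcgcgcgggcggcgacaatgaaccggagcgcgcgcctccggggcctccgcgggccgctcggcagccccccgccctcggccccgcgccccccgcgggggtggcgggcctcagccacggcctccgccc
Dusp1, chr17:26508423-26508722, minus strand: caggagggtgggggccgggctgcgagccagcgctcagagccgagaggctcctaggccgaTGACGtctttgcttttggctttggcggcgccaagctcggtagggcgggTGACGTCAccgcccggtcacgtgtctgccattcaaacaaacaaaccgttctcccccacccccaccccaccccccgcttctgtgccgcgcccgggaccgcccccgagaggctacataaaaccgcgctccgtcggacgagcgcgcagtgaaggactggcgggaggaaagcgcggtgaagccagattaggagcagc
Egr2, chr10:67537619-67537918, plus strand: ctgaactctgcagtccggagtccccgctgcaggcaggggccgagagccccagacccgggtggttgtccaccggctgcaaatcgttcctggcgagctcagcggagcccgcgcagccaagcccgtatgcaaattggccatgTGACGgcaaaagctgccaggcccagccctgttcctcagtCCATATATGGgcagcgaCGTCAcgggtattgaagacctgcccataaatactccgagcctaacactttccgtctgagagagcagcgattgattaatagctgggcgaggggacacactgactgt

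All 8 genes with a window kept held a CRE core on one of the strands in at least 1 window, whereas 23.0% of 27025 genes did so (20.8% of 32851 windows). Nr4a1 and Nr4a2 held 4 cores each, the Dusp1 window 3 and the Fos window 2. With the start site counted as position 0, the Fos cores began at positions -129 and -66. The full CRE was found in 1 of the 8 genes, Dusp1, and in 2.03% of all genes. It lay from -143 to -136, where 2 overlapping cores make up the palindrome. Of the 8 genes with a window kept, only Egr2 held a CArG box there (1.81% of all genes). Its CCATATATGG lay from -72 to -63 of the window shown. Of sites bound by products of the class itself, the EGR site GCGNGGGCG was present in Nr4a2, Fosb and Nr4a1 (6.27% of all genes). The AP-1 site TGANTCA (8.97% of all genes) and the Nr4a site AAAGGTCA (1.7%) were present in none. The TATA box letters TATAAA were matched in 3 genes (15.7% of all genes). The Fos match lay from -33 to -28 and the Junb match from 0 to 5. The Nr4a2 match lay from -164 to -159 on the opposite strand. Both strands were searched for every motif. The windows of these genes held 56.0% to 81.67% GC. The shares over all genes were not matched for GC content or for the number of windows per gene. These are matches of letters in a window and not measured binding.

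Sequencing gave between 8450009 and 12577839 gene counts in 5xFAD libraries and between 8696392 and 12102506 in WT libraries, and 12952 genes passed the filter. One library stood apart. WT replicate 3 correlated with the other libraries across genes at Spearman's rho of 0.9158 to 0.9313, while all pairs without it lay between 0.9756 and 0.9863. Its deviation from the other WT libraries followed transcript GC content, with a Spearman's rho of -0.60 across 12771 genes, which are not independent replicates. Results are therefore given with and without it. Levels are CPM, counts relative to library size with TMM scaling. Log2 differences are 5xFAD minus WT, and a gene was called at a Benjamini-Hochberg adjusted p under 0.05 over all genes tested in edgeR's quasi-likelihood test.

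With all 6 libraries, 0 of the 10 immediate early genes were called, either higher or lower in 5xFAD. Their median log2 difference was -0.18, with 7 of 10 below 0, against a median of -0.022 over all genes tested, of which 52.3% lay below 0. Over all genes, 0.656% were called higher and 0% lower, while 231 genes were lower at an unadjusted p under 0.05, with 0 immediate early genes among them. DESeq2 and limma-voom likewise called 0 of the 10. In a fit without WT replicate 3, all 10 lay below 0, with a median of -0.50 against 0.0094 over 13376 genes (48.4% below 0), and 5 were called lower (Egr1, Arc, Nr4a1, Nr4a2 and Dusp1), where 0.501% of all genes were called lower. Leaving out WT replicate 1 or WT replicate 2 in place of WT replicate 3 gave 0 called and medians of 0.012 and 0.013, so the direction of the median rested on which WT library was left out. WT replicate 3 was the lowest library for 9 of the 10 genes, so leaving it out raises their WT mean by construction.

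**Figure D1:**
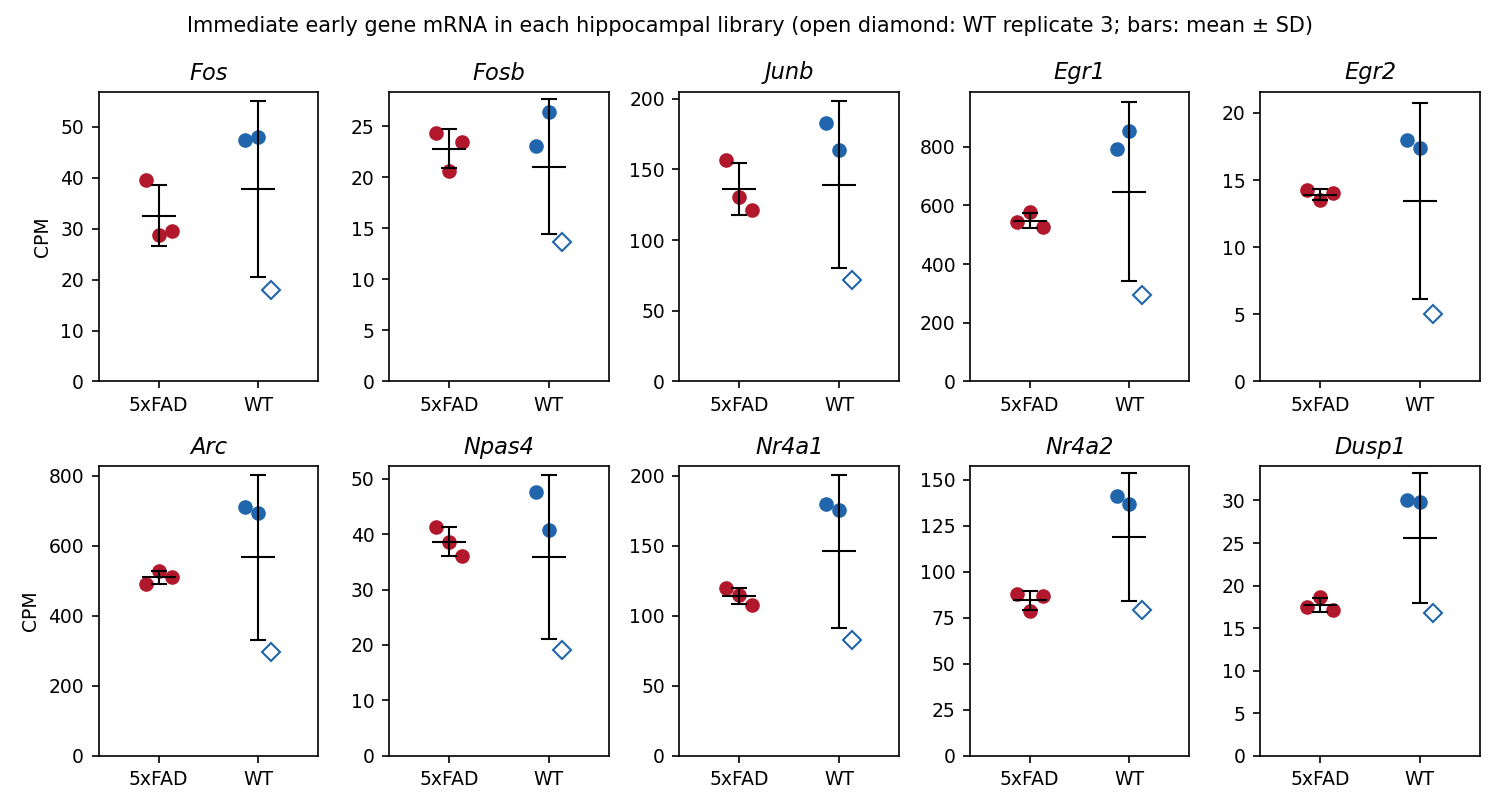
CPM of each immediate early gene in the 3 5xFAD and 3 WT libraries, with mean and SD as bars and WT replicate 3 as an open diamond, on linear axes from 0. WT replicate 3 was the lowest library for 9 of the 10 genes, and WT replicates 1 and 2 lay above all 5xFAD libraries for 8 of them.

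Egr1, a zinc finger transcription factor required for late phases of long-term potentiation, had 543.2, 576.4 and 525.0 CPM in 5xFAD libraries, against 793.0, 853.2 and 295.1 CPM in WT libraries. WT replicates 1 and 2 were above every 5xFAD library and WT replicate 3 was below every one. With all 6 libraries the means were 548.2 ± 26.1 CPM in 5xFAD and 647.1 ± 306.3 CPM in WT (SD, n = 3 each), a log2 difference of -0.24 ± 0.36 (SE, edgeR adjusted p = 0.884). Without WT replicate 3 it was -0.58 ± 0.084, 33.2% lower in 5xFAD (edgeR adjusted p = 0.000337).

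Egr2, its relative, known outside neurons for its role in myelinating Schwann cells, had 14.3, 13.5 and 14.0 CPM in 5xFAD libraries, against 18, 17.4 and 5.05 CPM in WT libraries. WT replicate 3 held 53 counts of it, the lowest count of any of the 10 genes in any library. The all-library log2 difference was 0.045 ± 0.42 and that without WT replicate 3 was -0.34 ± 0.19 (SE, edgeR adjusted p = 0.981 and 0.441).

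The nuclear receptors Nr4a1 (Nur77) and Nr4a2 (Nurr1) act as transcription factors without a classical ligand and have been tied to memory consolidation. Nr4a1 (chr15:101254269-101274795, plus strand, GENCODE M21 on mm10) had 119.8, 114.8 and 107.8 CPM in 5xFAD libraries, against 179.9, 175.6 and 82.8 CPM in WT libraries. Its log2 difference was -0.36 ± 0.28 with all libraries (edgeR adjusted p = 0.818) and -0.64 ± 0.096 without WT replicate 3, 35.7% lower in 5xFAD (edgeR adjusted p = 0.000526). Nr4a2 (chr2:57106830-57124003, minus strand) had 87.6, 78.4 and 86.9 CPM in 5xFAD libraries, against 140.8, 136.8 and 78.9 CPM in WT libraries. It was the single gene of the class for which WT replicate 3 was not the lowest library, since 5xFAD replicate 2 lay just under it. Its log2 difference was -0.50 ± 0.24 with all libraries (edgeR adjusted p = 0.81) and -0.71 ± 0.10 without WT replicate 3, 39.1% lower in 5xFAD (edgeR adjusted p = 0.00029).

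Dusp1, the MAP kinase phosphatase, showed the lowest 5xFAD level relative to WT in both fits. It had 17.5, 18.6 and 17.1 CPM in 5xFAD libraries, against 30.1, 29.9 and 16.8 CPM in WT libraries. WT replicate 3 fell just under the 5xFAD libraries, which spanned only 17.1 to 18.6 CPM. The log2 difference was -0.53 ± 0.27 with all libraries (edgeR adjusted p = 0.81) and -0.75 ± 0.16 without WT replicate 3, 40.7% lower in 5xFAD (edgeR adjusted p = 0.0126). The annotated span of Dusp1, chr17:26505590-26562128 on the minus strand, overlaps Ergic1 on the plus strand, and whether counting used strand is not stated.

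Arc (chr15:74669083-74672570, minus strand) had 491.2, 527.9 and 510.9 CPM in 5xFAD libraries, against 711.6, 693.5 and 295.8 CPM in WT libraries. As for Egr1, WT replicates 1 and 2 were above and WT replicate 3 below all 5xFAD libraries. The log2 difference was -0.15 ± 0.32 with all libraries (edgeR adjusted p = 0.909) and -0.46 ± 0.082 without WT replicate 3, 27.2% lower in 5xFAD (edgeR adjusted p = 0.00302). In 11 further fits without WT replicate 3, Egr1, Arc, Nr4a1 and Nr4a2 were called in all 11 and Dusp1 in 8, with adjusted p up to 0.00806 for Egr1, 0.0428 for Arc, 0.012 for Nr4a1, 0.00751 for Nr4a2 and 0.114 for Dusp1. Dusp1 lost its call when 5xFAD replicate 3 (adjusted p = 0.0526), WT replicate 1 (0.0952) or WT replicate 2 (0.114) was also left out. Fos was called in 4 of these fits and Junb in 1. In limma-voom with all 6 libraries weighted by quality, Arc was not called (adjusted p = 0.06) and Egr1, Nr4a1, Nr4a2 and Dusp1 were.

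Fos, Fosb and Junb encode subunits of the AP-1 transcription factor, in which a Fos protein pairs with a Jun protein. Fos had 39.5, 28.7 and 29.5 CPM in 5xFAD libraries, against 47.4, 48.0 and 17.9 CPM in WT libraries. 5xFAD replicate 1 was the highest of its group and still lay below WT replicates 1 and 2. The log2 difference was -0.22 ± 0.35 with all libraries and -0.55 ± 0.15 without WT replicate 3 (SE, edgeR adjusted p = 0.892 and 0.0655). Junb (chr8:84974484-84978718, minus strand) had 156.9, 130.1 and 121.3 CPM in 5xFAD libraries, against 182.4, 163.3 and 71.6 CPM in WT libraries, with log2 differences of -0.032 ± 0.32 and -0.34 ± 0.11 (SE, edgeR adjusted p = 0.981 and 0.136). Junb overlaps Prdx2 on the opposite strand. Fosb, whose truncated product accumulates with repeated stimulation, lies at chr7:19302696-19310051 on the minus strand. It had 24.3, 20.6 and 23.5 CPM in 5xFAD libraries, against 23.1, 26.4 and 13.6 CPM in WT libraries. Here the groups overlapped even without WT replicate 3, and the log2 differences were 0.12 ± 0.27 and -0.11 ± 0.16 (SE, edgeR adjusted p = 0.921 and 0.842).

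Npas4 (chr19:4984355-4990316, minus strand) is a factor induced selectively by depolarisation that adjusts inhibitory synapses. It had 41.3, 38.6 and 36.1 CPM in 5xFAD libraries, against 47.6, 40.8 and 19.2 CPM in WT libraries. 5xFAD replicate 1 lay above WT replicate 2, so the groups overlapped with or without WT replicate 3. Its log2 differences were 0.11 ± 0.31 and -0.19 ± 0.14 (SE, edgeR adjusted p = 0.939 and 0.594). Without WT replicate 3, the 95% intervals of Npas4 (-0.48 to 0.10), Fosb (-0.46 to 0.23) and Egr2 (-0.73 to 0.052) all included 0. Those of Fos (-0.87 to -0.23) and Junb (-0.58 to -0.11) did not, although neither gene was called after adjustment.

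**Figure D2:**
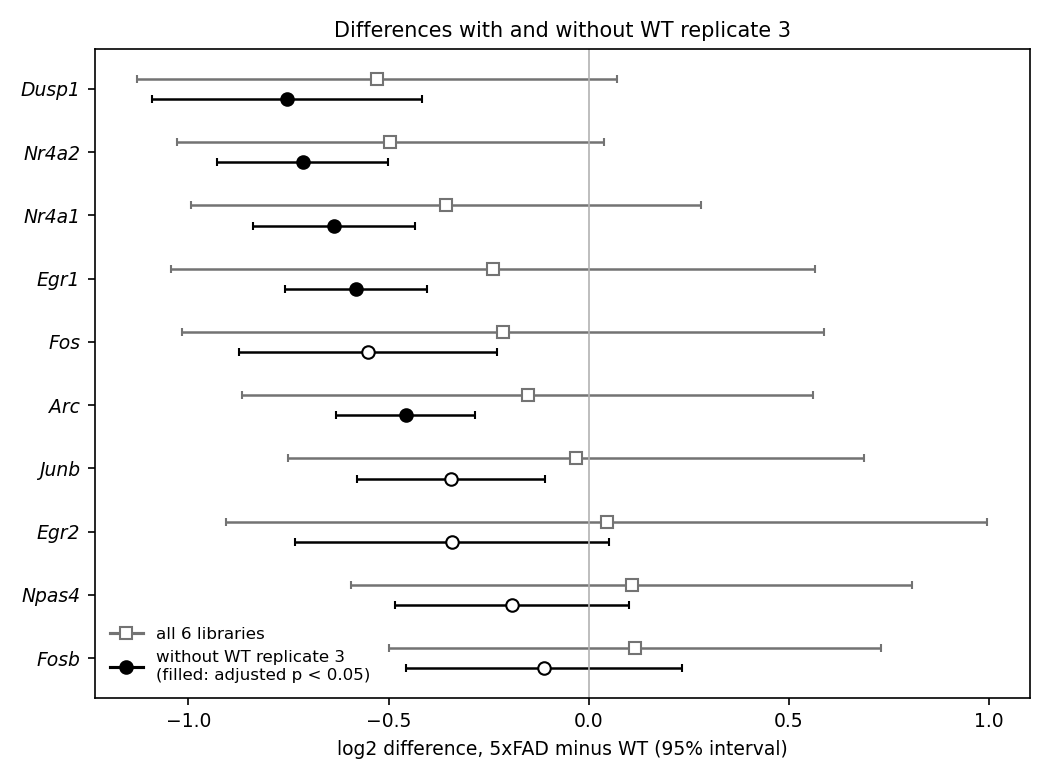
Log2 difference (5xFAD minus WT) of each immediate early gene with its 95% interval from the edgeR fit, with all 6 libraries as grey squares and without WT replicate 3 as black circles, filled where adjusted p was under 0.05. Every square's interval crosses 0, while all 10 circles lie below 0, from -0.75 for Dusp1 to -0.11 for Fosb.

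By groups that did not overlap, 0 of the 10 genes were lower in all 5xFAD than in all WT libraries, against 6.35% of all genes. Without WT replicate 3 this held for 8 of 10, all but Fosb and Npas4, against 14.3% of all genes. To compare genes with each other, levels were divided by the joined length of all annotated exons of a gene. That length can exceed the length of any single transcript, so the order below depends on it. In 5xFAD libraries the order was Arc (166.8 CPM per kb), Egr1 (122.3), Junb (59.2), Nr4a1 (32.5), Nr4a2 (20.8), Fos (13.9), Npas4 (9.35), Dusp1 (5.36), Egr2 (4.10) and Fosb (3.65). The 5xFAD libraries kept each of these neighbours apart without overlap, including Egr2 (3.97 to 4.19 CPM per kb) and Fosb (3.31 to 3.89). In WT libraries too, Arc (232.8, 226.9 and 96.8 CPM per kb) exceeded Egr1 (176.8, 190.3 and 65.8 CPM per kb) in each library. This order rested on the lengths used, 3057 bases for Arc and 4484 for Egr1. Without division by length, mean Egr1 (548.2 CPM) exceeded mean Arc (510 CPM) in 5xFAD libraries.

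By medians, the class was even within 5xFAD and between WT replicates 1 and 2, and uneven over all 3 WT libraries. The median SD over the 10 genes was 0.083 on the log2 scale in 5xFAD and 0.71 in WT, and WT replicates 1 and 2 differed by a median of only 0.046. Over 7218 genes in the same range of level, the medians were 0.13 in 5xFAD, 0.36 in WT and 0.14 between WT replicates 1 and 2. Fos (0.25) and Junb (0.19) were above that median in 5xFAD. Npas4 (0.22), Fosb (0.19) and Junb (0.16) were above it between WT replicates 1 and 2. Expressed as log2 deviation from each gene's mean over libraries, the class averaged 0.040, -0.067 and -0.084 in 5xFAD libraries, against 0.45, 0.42 and -0.76 in WT libraries. WT replicate 3 was lowest for 9 of the 10 genes, against 35.1% of all genes.

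**Figure D3:**
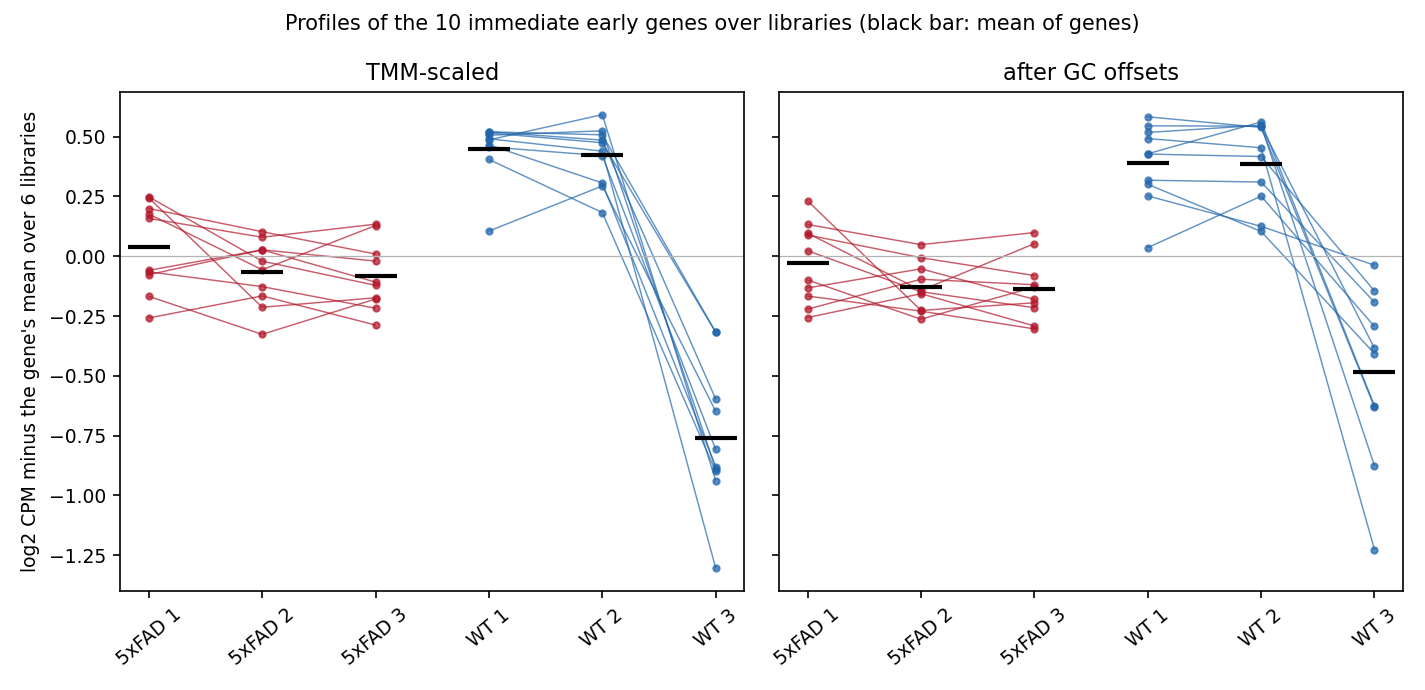
Log2 CPM of each immediate early gene minus its mean over the 6 libraries, with TMM scaling alone (left) and after removal of each library's trend with transcript GC content (right), with 1 line per gene in each group and black bars for the mean of the 10 genes. The mean in WT replicate 3 was -0.76 before and -0.48 after the correction, below every other library in both panels.

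Among the 10 immediate early genes, the deviations of WT replicate 3 were ordered by transcript GC content only in part. Nr4a2 and Dusp1, of lowest GC content (47.9% and 50.9%), deviated least, by -0.81 and -0.83. From Fosb through Nr4a1, Npas4 and Arc to Junb (55.9% to 62.6% GC), the deviation grew from -0.85 to -1.27. Fos, Egr2 and Egr1, between these in GC content (51.9% to 55.5%), deviated most, by -1.40, -1.77 and -1.48. No correlation over the 10 genes was computed. The 10 genes had a median transcript GC content of 55.7%, against 51.2% over all genes tested. Relative to WT replicates 1 and 2, they were lower in WT replicate 3 by a median log2 of -1.22 (range -1.77 to -0.81), whereas the median was 0.054 over all genes and -0.22 over the 8540 genes within the GC range of the class. After a GC correction by library the median was -0.77 (range -1.70 to -0.23), and WT replicate 3 was still the lowest library for 7 of 10 genes. The share of all genes lowest in WT replicate 3 after the correction was not computed. The correction removed most of the deviation of Junb, the gene of highest GC content at 62.6% (-1.27 before, -0.23 after), and almost none of that of Fos (-1.40 before, -1.41 after), with a GC content of 51.9%. For Nr4a2, of lowest GC content at 47.9%, the deviation was larger after correction (-0.81 before, -1.19 after). With the correction and all 6 libraries, all 10 genes lay below 0 with a median of -0.28, and 0 were called. The part of GC content in these values beyond this correction was not tested.

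**Figure D4:**
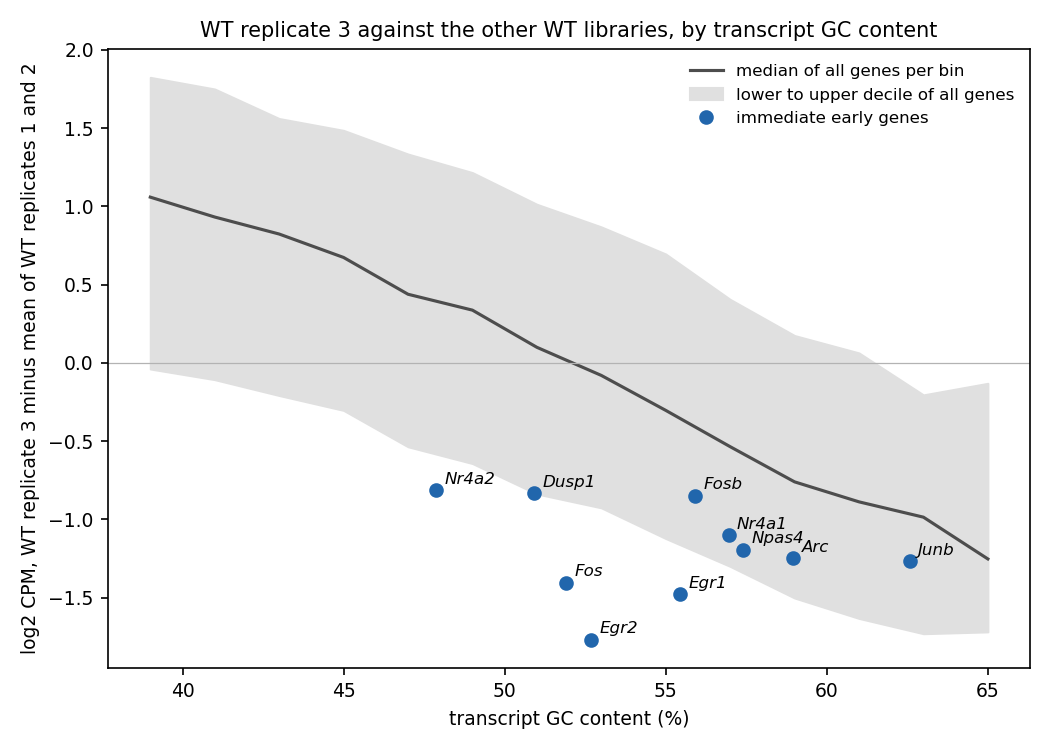
Log2 CPM of WT replicate 3 minus the mean of WT replicates 1 and 2 against transcript GC content in percent, with the median of all genes per GC bin as a line, their lower to upper decile as a band and the immediate early genes as points. All 10 genes lie below the line, with Egr2 lowest at -1.77.

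WT replicate 3 had the lowest summed CPM for most cell type marker lists. Its dentate granule cell markers summed to 465.1 CPM, against 725.1 to 821.7 CPM in 5xFAD libraries. Its oligodendrocyte markers summed to 2133 CPM, against 3168 to 3556 CPM. Its sums for inhibitory neurons (568.4 CPM) and for endothelial and mural cells (293.5 CPM) were not the lowest. The summed level of 8 excitatory neuron markers, Slc17a7 and Camk2a among them, lay between 15810 and 17380 CPM in 5xFAD libraries. In WT libraries it was 17610, 19770 and 7929 CPM. With all 6 libraries 4 of these 8 markers lay below 0, with a median log2 difference of -0.026. Without WT replicate 3 all 8 lay below 0, with a median log2 difference of -0.23 and 1 called lower. Of all genes, 48.4% lay below 0 and 0.501% were called lower. The 8 inhibitory neuron markers had a median of -0.32, all below 0, with 1 called lower, Npy (0.501% of all genes). With all 6 libraries their median was -0.42, again with all 8 below 0. Npy was named after its values were seen. Markers of dentate granule cells and of CA1 and CA3 pyramidal cells had medians of -0.076 and -0.065, against 0.19 and -0.12 with all 6 libraries. Microglial markers, by contrast, summed to between 668.4 and 730.3 CPM in 5xFAD libraries, against 159.1 to 251.2 CPM in WT libraries, with 7 of 9 called higher without WT replicate 3, where 2.39% of all genes were called higher. Choroid plexus markers ranged widely within each group, at 735.4 to 4360 CPM in 5xFAD libraries and 403.9 to 2312 CPM in WT libraries. The part of cell composition or dissection in the values of the immediate early genes was not tested.

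Further immediate early transcription factors were compared next. Of 19 tested without WT replicate 3, 11 lay below 0, with a median of -0.12, against 48.4% of all genes below 0, and 1 was called, in the higher direction (2.39% of all genes): Klf2, a Krüppel-like factor that is also abundant in endothelium. Klf2 had 63.6, 43.4 and 47.8 CPM in 5xFAD libraries, against 31.2, 35.5 and 20.3 CPM in WT libraries (log2 difference 0.63 ± 0.16 without WT replicate 3, edgeR adjusted p = 0.043). Klf2 was called in 7 of the 11 further fits. It lost its call when 5xFAD replicate 1 (edgeR adjusted p = 0.105) or 5xFAD replicate 3 (0.0571) was also left out. The call was also lost when WT replicate 1 (log2 difference 0.54) or WT replicate 2 (0.72) was also left out. With all 6 libraries the median of the list was 0.071, with 5 of 18 below 0, so its sign turned on WT replicate 3. Klf4 had a log2 difference of 0.43 ± 0.19 and was not called (edgeR adjusted p = 0.333).

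Of 19 other immediate early effectors tested without WT replicate 3, 7 lay below 0, against 48.4% of all genes. The 1 called was higher (2.39% of all genes were): Zfp36 (tristetraprolin), which promotes decay of cytokine mRNAs. It had 25.7, 26.4 and 24.0 CPM in 5xFAD libraries, against 9.43, 11.9 and 4.48 CPM in WT libraries (log2 difference 1.25 ± 0.19 without WT replicate 3, edgeR adjusted p = 0.000501). Zfp36 was called in all 11 further fits. With all 6 libraries its edgeR adjusted p was 0.124, but it was called with DESeq2 (adjusted p = 0.00264), GC offsets (0.0428), the replicate block (0.0217) and both of the last (0.0091). Cyr61, a matricellular protein, had a log2 difference of 0.64 ± 0.27 and was not called (edgeR adjusted p = 0.291).

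Among 15 delayed activity-regulated genes, 13 lay below 0 without WT replicate 3, with a median of -0.29, against 48.4% of all genes below 0, and 4 were called lower (0.501% of all genes): Vgf, Penk, Scg2 and Rgs4. Vgf and Scg2 encode granin-like secretory proteins, Penk the enkephalin precursor and Rgs4 a regulator of G protein signalling. Rgs4 had 37.9, 36.8 and 37.6 CPM in 5xFAD libraries, against 65.3, 53.7 and 112.6 CPM in WT libraries (log2 difference -0.66 ± 0.13, edgeR adjusted p = 0.00779). Unlike the immediate early genes, Rgs4 and Scg2 were highest in WT replicate 3. With all 6 libraries their groups did not overlap, as for 6.35% of all genes in this direction. Scg2 had 70.6, 67.8 and 75.7 CPM in 5xFAD libraries, against 92.3, 103.4 and 150.0 CPM in WT libraries (log2 difference -0.45 ± 0.11, edgeR adjusted p = 0.034). Vgf followed the immediate early pattern, with 673.6, 599.3 and 705.4 CPM in 5xFAD libraries, against 1086, 964.2 and 310.7 CPM in WT libraries (log2 difference -0.63 ± 0.089 without WT replicate 3, edgeR adjusted p = 0.000268). Penk had a log2 difference of -0.66 ± 0.16 (edgeR adjusted p = 0.0339). Of the 11 further fits, Vgf was called in 11, Rgs4 in 10, Scg2 in 5 and Penk in 5. Rgs4 lost its call when WT replicate 1 was also left out (adjusted p = 0.17). Scg2 and Penk lost theirs with total counts (adjusted p = 0.0865 and 0.0764) and with any further library left out (adjusted p of 0.0536 to 0.428 and of 0.0629 to 0.302). With all 6 libraries the median was -0.11, with 8 of 14 below 0, and DESeq2 called Rgs4 (adjusted p = 0.0437). Vgf and Penk were named after their values were seen.

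Kinases and other signalling genes upstream of the class were also compared. Of 19 MAP kinase pathway genes none was called without WT replicate 3, where 2.39% of all genes were called higher and 0.501% lower. Their median was -0.096 in that fit and -0.14 with all 6 libraries. Rps6ka1 had a log2 difference of 0.44 ± 0.20 without WT replicate 3. Of 17 calcium and cAMP signalling genes 1 was called lower without WT replicate 3, where 0.501% of all genes were. The median of these 17 was -0.13 in that fit, with 13 below 0, and -0.23 with all 6 libraries. The gene called was Adcy8, a calcium-stimulated adenylyl cyclase. Adcy8 had 31.7, 31.2 and 29.0 CPM in 5xFAD libraries, against 50.9, 42.1 and 41.5 CPM in WT libraries (log2 difference -0.60 ± 0.14, edgeR adjusted p = 0.0295). All 3 5xFAD libraries lay below all 3 WT libraries, as they did for 6.35% of all genes. Adcy8 was called in 7 of the 11 further fits, and not with total counts (adjusted p = 0.0676) or when 5xFAD replicate 2 (0.0709), 5xFAD replicate 3 (0.116) or WT replicate 1 (0.292) was also left out. Calm2, encoding calmodulin, had a log2 difference of -0.67 ± 0.33 with all 6 libraries and -0.16 ± 0.090 without WT replicate 3, which held 1300 CPM of it against 556.8 and 597.8 CPM in the other WT libraries.

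Of 19 transcription factors and cofactors that drive immediate early genes none was called, with a median of -0.093 and 13 below 0, whereas with all 6 libraries the median was 0.13 and 4 of 19 lay below 0. Nelfcd, a subunit of the negative elongation factor, and Mef2c had log2 differences of 0.59 ± 0.19 and -0.16 ± 0.12. Of 8 MAP kinase phosphatases other than Dusp1 none was called, with a median of -0.15 (0.032 with all 6 libraries) and log2 differences of -0.16 ± 0.27 for Dusp16 and 0.0035 ± 0.15 for Dusp5. Of 13 repressors and partners of the encoded proteins, with a median of -0.054 (0.12 with all 6 libraries), 1 was called, higher (2.39% of all genes). It was Rxra, a dimerisation partner of Nr4a1 and Nr4a2, at 0.54 ± 0.13 (edgeR adjusted p = 0.0326). Hdac4 stood at 0.14 ± 0.098. Rxra was called in 8 of the 11 further fits, and not when 5xFAD replicate 2 (adjusted p = 0.0665), 5xFAD replicate 3 (0.137) or WT replicate 2 (0.428) was also left out. In the edgeR fit with all 6 libraries and no correction, none of the genes in these 8 lists was called.

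**Figure D5:**
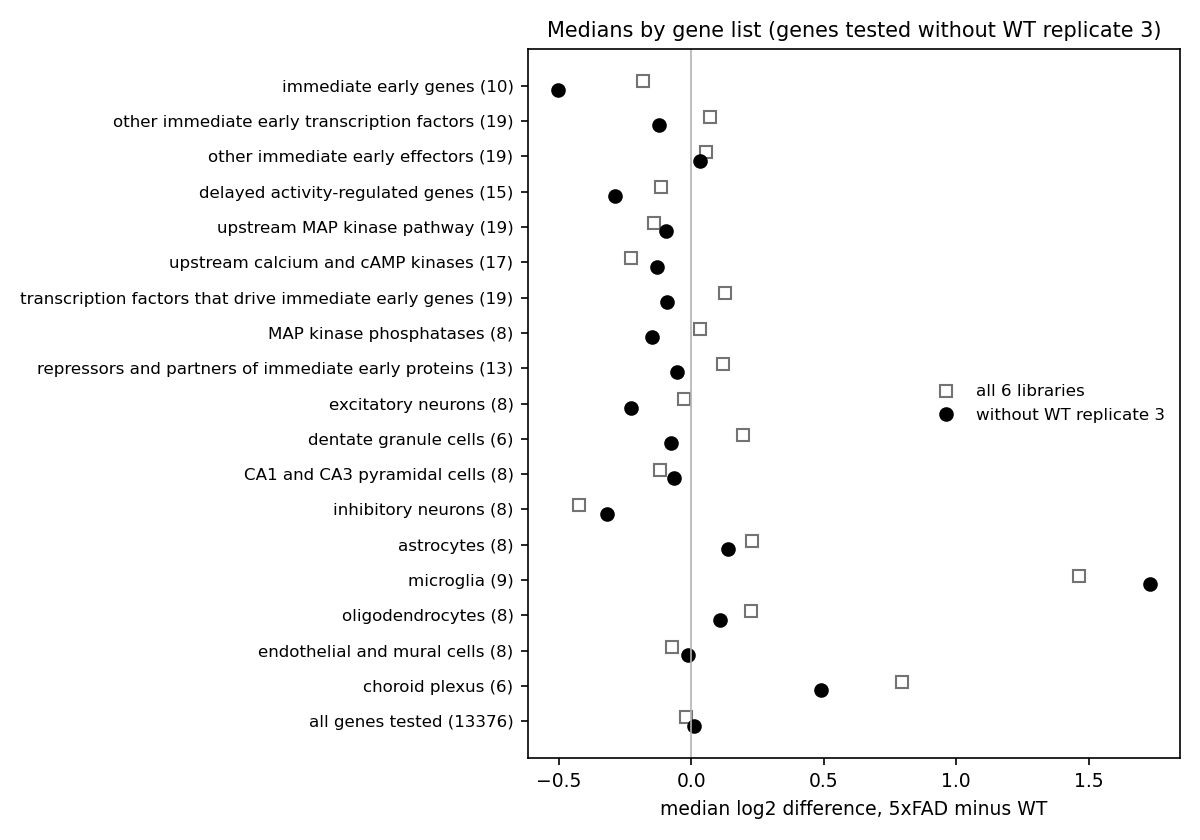
Median log2 difference (5xFAD minus WT) of the immediate early genes, 8 related gene lists, 9 cell type marker lists and all genes tested, with all 6 libraries as squares and without WT replicate 3 as circles, and the number of genes tested in brackets. Without WT replicate 3 the immediate early genes had the lowest of these medians (-0.50) and microglial markers the highest (1.73). With all 6 libraries inhibitory neuron markers had the lowest (-0.42), and the immediate early genes stood at -0.18.

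The genes outside the class whose profile over the 6 libraries was nearest to its mean profile were Plekha7, Spred3, Gpr162, R3hdm2 and Camk2n1, with root mean square differences of 0.044, 0.058, 0.063, 0.064 and 0.064 on the log2 scale. Over the 5 libraries without WT replicate 3 these were 0.018, 0.055, 0.067, 0.067 and 0.070. Camk2n1, an inhibitor of CaMKII, had 1314, 1253 and 1202 CPM in 5xFAD libraries, against 1572, 1594 and 728.1 CPM in WT libraries. Plekha7, an adherens junction protein, had 54.6, 52.3 and 50.1 CPM in 5xFAD libraries, against 72.9, 71.2 and 34.0 CPM in WT libraries. In both, as in Egr1 and Arc, WT replicate 3 was lowest and WT replicates 1 and 2 highest. Being chosen for this likeness, they are given without a test.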

How the data were processed

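Hippocampal RNA-seq was analysed from 3 5xFAD and 3 WT libraries. Per the submitters' processing notes, reads were trimmed with cutadapt 1.9.3, aligned to mm10 with HISAT2 2.0.4 and counted with HTSeq 0.9.1. The deposited counts are whole, unnormalised read counts per gene made by the authors, and these were used. A second block of 6 columns, the authors' edgeR 3.16.5 normalised values, was not used. Neither the annotation release nor the strandedness of counting is given in the sources used here.

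Genes were kept by filterByExpr (minimum count 10), leaving 12952 genes and 99.9% of counts, or 13376 genes without WT replicate 3. Counts were scaled by TMM and tested with edgeR 4.0.16 (quasi-likelihood, no covariates, R 4.3.3) at a Benjamini-Hochberg adjusted p under 0.05 over all genes. The refit rescales CPM slightly; CPM printed are from the 6-library scaling. GC offsets were lowess trends (span 0.3) of each library on GENCODE M21 transcript GC content. DESeq2 1.42.0 and limma 3.58.1 were alternatives. Code for the tests was tested on simulated data. Exact permutation of 3 against 3 libraries cannot go below p = 0.1, so single genes were tested in the fit across all genes.

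Members, gene lists and markers were chosen with earlier results of these data known. Named genes were the 10 members, any called gene and the 2 of smallest p in each of 8 lists, and the 5 nearest profiles. No pair of libraries agreed within sampling noise. Some named items are not reported here.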

Additional observations from a re-analysis of the deposited data

How the results depend on the processing

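With WT replicate 3 in the fit, 0 of the 10 immediate early genes were called under other scaling factors, no count filter, DESeq2, limma-voom, GC offsets or the replicate block. The exception was limma-voom with library weights, added after seeing the data, which gave WT replicate 3 a weight of 0.0976 and called 4 lower. Leaving out libraries, that count ranged from 0 to 7. The added fits without WT replicate 3 called 5 with DESeq2 on all genes, 6 with DESeq2 on the genes past the filter, 6 with limma-voom, 6 with GC offsets, 5 with RLE factors and 5 with total counts. All 10 genes lay below 0 in each of them. Fos was the sixth gene. DESeq2 was first run on the full table, as planned, and the run on filtered genes was added afterwards.

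Over all genes, 85 were called. DESeq2 called 203 (218 on filtered genes), an unadjusted p under 0.05 with a 2-fold change 408, library weights 410, and leaving out libraries 15 to 481. The added fits without WT replicate 3 called 397 with GC offsets, 445 with DESeq2 (478 on filtered genes), 361 with limma-voom, 373 with RLE factors and 394 with total counts.

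Several uncalled log2 differences changed sign. With limma-voom they were 0.076 for Junb, 0.021 for Gpr162, 0.050 for R3hdm2 and 0.044 for Camk2n1. With GC offsets they were -0.010 for Fosb, -0.0037 for Egr2 and -0.030 for Npas4, and with library weights -0.080, -0.30 and -0.19 for the same genes. Without WT replicate 3, Fosb, Egr2 and Npas4 stood at -0.14, -0.38 and -0.21 with GC offsets, at -0.12, -0.35 and -0.20 with DESeq2 on either set of genes and with RLE factors, at -0.11, -0.34 and -0.20 with limma-voom, and at -0.043, -0.27 and -0.13 with total counts. Dusp5 then stood at -0.020 with GC offsets, -0.0078 with DESeq2 (-0.0069 on filtered genes), -0.0042 with limma-voom and -0.0068 with RLE factors. Leaving out libraries gave -0.20 to 0.31 for Fosb, -0.45 to 0.21 for Junb, -0.63 to 0.0098 for Egr1, -0.37 to 0.31 for Egr2, -0.49 to 0.043 for Arc, -0.30 to 0.37 for Npas4, -0.57 to 0.014 for Dusp16, -0.059 to 0.31 for Dusp5, -0.43 to 0.078 for Spred3, -0.36 to 0.12 for Gpr162, -0.39 to 0.14 for R3hdm2, -0.36 to 0.13 for Camk2n1 and -0.71 to 0.048 for Vgf. Causes of the differences between settings were not tested.

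Same-numbered libraries deviated together at correlations of 0.0937, 0.0694 and 0.1772, not all over 0.1, so the numbers were not taken as pairs, although every library correlated best with its own number. The replicate block left the immediate early genes at 0 called with a median of -0.077, and moved Junb to 0.067, Gpr162 to 0.014, R3hdm2 to 0.041 and Camk2n1 to 0.036. With the replicate block and GC offsets, 145 genes were called and Npas4 stood at -0.0002. Depth limits the least abundant gene, Egr2, most, at 53 to 208 counts per library.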
